A study of Mus musculus with 12 samples.

Results

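The apolipoprotein genes described here are 10 liver genes, Apoa1, Apoa2, Apoa4, Apoa5, Apob, Apoc1, Apoc3, Apoe, Apoh and Apom, chosen by symbol from the 55903 genes of a mouse liver RNA-seq table. All 10 passed the filter on low values that left 10883 genes for testing. The table holds 12 libraries in 3 groups of 4. The first group was treated with KSL0608-Se, a code name, and the labels join that code to doxo, an abbreviation that the labels do not spell out. The second group is titled an aged control and described as doxo, and is called aged/doxo here because the labels do not settle which of age and drug it stands for. The third is the young control. No label read here gives a strain, an age in numbers, a dose or a time of treatment. The series title speaks of senolysis, the removal of senescent cells, switched on by light. No label ties a library to an animal, so the tests weigh differences against the spread between libraries, part of which may be technical.

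Apolipoproteins are the protein coats of the particles that carry fat and cholesterol in blood, and hepatocytes, the main cells of the liver, secrete most of them. ApoB forms the scaffold of very-low-density lipoprotein (VLDL), the particle by which liver exports triglyceride, while apoA-I forms the scaffold of high-density lipoprotein (HDL), which takes up cholesterol from tissues. The smaller apolipoproteins move between particles, where they set how fast lipoprotein lipase removes triglyceride (apoC-III slows it and apoA-V speeds it) and which receptors clear the remnants (apoE is the ligand).

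Several of the genes lie side by side in the genome, and their positions were looked up by Ensembl identifier in the GENCODE M21 annotation of GRCm38. Apoa1, Apoc3, Apoa4 and Apoa5 share a stretch of 43340 bases on chromosome 9. Apoa1 runs from 46228580 to 46230466, Apoc3 from 46232933 to 46235636 on the opposite strand, Apoa4 from 46240696 to 46243459 and Apoa5 from 46268633 to 46271919. Apoe (19696109 to 19699188) and Apoc1 (19689481 to 19692660) lie on chromosome 7 with Apoc4 and Apoc2 in a stretch of 27610 bases. Apoa2 is on chromosome 1 from 171225054 to 171226379, Apob on chromosome 12 from 7977648 to 8016835, Apoh on chromosome 11 from 108343354 to 108414396 and Apom on chromosome 17 from 35128997 to 35132050. Each of the 10 is a protein-coding gene in that annotation. Of the genes that overlap a member, the highest value in any library was 1.87 TPM, for Prkca, which overlaps Apoh on the opposite strand. The mature transcripts differ widely in length in the authors' table, at 458 bases for Apoa2, 532 for Apoc1, 709 for Apoc3, 1013 for Apom, 1035 for Apoa1, 1190 for Apoh, 1221 for Apoe, 1815 for Apoa4, 2515 for Apoa5 and 13934 for Apob.

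Promoter windows of 300 bases, from 250 before to 50 after the RefSeq start on GRCm38.p6, were found for 8 of the 10 members. Those of Apoa5 and Apom are shown because these transcripts varied together across libraries, and those of Apoa1 and Apoa2 because theirs tended to vary inversely with them. Apoc1 and Apoc3, which varied inversely with Apoa5 and Apom more strongly, had no window and were not examined. Pearson r of log2(TPM + 1) with Apoa5 over 12 libraries was -0.952 for Apoc1 and -0.897 for Apoc3. It was -0.648 for Apoa1 and -0.776 for Apoa2. Capitals mark matches, on either strand and without overlaps in these 4 windows, to GGGTCA (a nuclear receptor half-site), TATAAA or CCAAT. These motifs were chosen after the sequences were seen. The RefSeq start of Apom lies 249 bases from the GENCODE one, and that of Apoa1 50 bases. Among the windows not shown, that of Apoh is set at a RefSeq start 51943 bases from the GENCODE one.
Apoa5, chr9:46268383-46268682, plus strand: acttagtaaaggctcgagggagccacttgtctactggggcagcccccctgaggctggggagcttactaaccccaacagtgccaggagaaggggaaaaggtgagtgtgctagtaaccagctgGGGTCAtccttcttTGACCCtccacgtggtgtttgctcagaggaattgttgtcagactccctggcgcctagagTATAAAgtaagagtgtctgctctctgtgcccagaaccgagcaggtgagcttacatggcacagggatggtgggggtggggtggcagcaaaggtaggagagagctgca
Apom, chr17:35131752-35132051, minus strand: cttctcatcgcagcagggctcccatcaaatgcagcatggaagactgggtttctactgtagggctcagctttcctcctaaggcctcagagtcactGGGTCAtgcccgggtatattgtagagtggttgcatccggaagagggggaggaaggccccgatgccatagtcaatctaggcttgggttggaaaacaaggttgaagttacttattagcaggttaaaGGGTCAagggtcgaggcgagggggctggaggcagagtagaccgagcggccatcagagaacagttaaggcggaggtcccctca
Apoa1, chr9:46228380-46228679, plus strand: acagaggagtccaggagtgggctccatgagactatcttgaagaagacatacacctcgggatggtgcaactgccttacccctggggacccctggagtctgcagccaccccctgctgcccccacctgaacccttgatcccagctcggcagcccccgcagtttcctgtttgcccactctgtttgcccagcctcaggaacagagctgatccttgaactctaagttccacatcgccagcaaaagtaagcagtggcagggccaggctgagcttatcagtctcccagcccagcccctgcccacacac
Apoa2, chr1:171224804-171225103, plus strand: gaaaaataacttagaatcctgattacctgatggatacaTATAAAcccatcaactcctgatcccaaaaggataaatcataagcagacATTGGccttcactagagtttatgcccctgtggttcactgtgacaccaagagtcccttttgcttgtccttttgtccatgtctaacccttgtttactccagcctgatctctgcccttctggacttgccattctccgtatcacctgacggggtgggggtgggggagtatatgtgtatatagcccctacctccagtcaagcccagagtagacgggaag

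GGGTCA occurred in both the Apoa5 and the Apom window, 2 times in each, and in neither of the other windows shown. Of the 8 windows found, that of Apoe also held it, 1 time, and so did 13.7% of all 32851 promoter windows of this length. TATAAA, found in 13.6% of all windows, occurred 1 time each in the Apoa5 and Apoa2 windows and in that of Apob, which is not shown. CCAAT, found in 37.4%, occurred 1 time in the Apoa2 window. CAAAGTCCA, a strong binding form for the hepatocyte factor HNF4A, had an exact match in none of the 8 windows and in 0.475% of all windows. Forms that differ from it were not searched, so an HNF4A site may be present without a match. These matches describe letters only and were not linked to binding.

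The values are in TPM, a unit that divides reads by transcript length and scales each library to the same total. Levels of different genes can therefore be set side by side on this scale, while sequencing depth is unknown. The number of genes reaching 1 TPM ran between 9568 and 11023 over the libraries. Aged/doxo library 2 stood apart, with 27.6% of its TPM from the mitochondrial genome against at most 12.4% in any other library. A length slope was computed for each library as the change of log2(TPM + 1), relative to the mean of all libraries, per doubling of transcript length. It was -0.128 in aged/doxo library 2, -0.127 in young control library 1 and -0.104 in aged/doxo library 4, so that long transcripts were relatively low in these libraries, and between -0.0417 and 0.117 in the other 9. The 17 hepatocyte markers summed to 58458 TPM in aged/doxo library 2 and 74313 TPM in young control library 1, the 2 lowest sums, and to at most 115142 TPM; the part of these libraries' makeup in the results was not tested. Intestine also makes apoA-I, apoA-IV and apoB. Of 9 enterocyte markers, Cdx1, Cdx2, Lct, Muc2 and Sis were at 0 in all 12 libraries and Alpi, Krt20 and Vil1 reached at most 0.23 TPM, while Fabp2 stood between 23.0 and 86.7 TPM.

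The 10 genes together held 10.8% ± 0.835 of all TPM in treated liver, 11.7% ± 1.54 in aged/doxo liver and 10.4% ± 0.454 in young control liver (SD, n = 4 each). The lowest library, treated library 4, stood at 9.75% and the highest, aged/doxo library 4, at 13.6%. The ranges of the groups overlapped. With the mitochondrial genes taken out of the total, the shares were 11.98%, 13.9% and 11.6% in the same order of groups. Apoe, Apoa2, Apoc1 and Apoa1 made up between 90.2% and 91.8% of the family's TPM in every library, so the plot of shares is set mainly by these 4 genes.

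**Figure D1:**
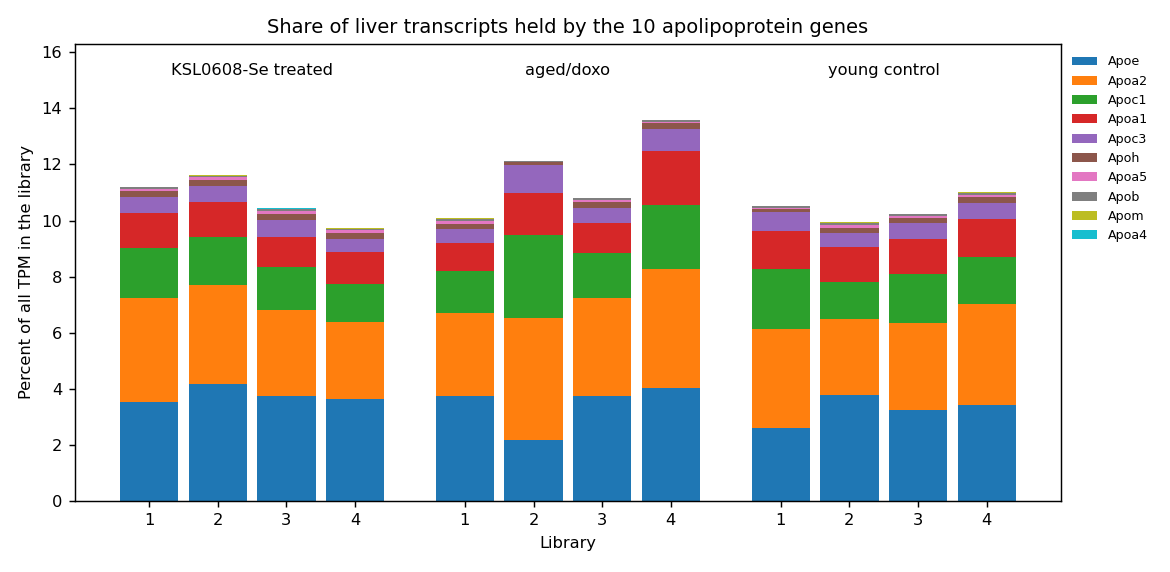
Stacked bars give the percent of all TPM held by each of the 10 apolipoprotein genes in each library, with treated libraries left, aged/doxo in the middle and young control right. Totals run between 9.75% and 13.6%, and in aged/doxo library 2 the Apoe segment is narrow and the Apoc1 segment wide.

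By level, the genes fell into an order that differed little between livers. Averaged over the 12 libraries, Apoe stood at 34814 TPM, Apoa2 at 34217, Apoc1 at 18013, Apoa1 at 12861, Apoc3 at 6105, Apoh at 1869, Apoa5 at 746, Apob at 604, Apom at 206 and Apoa4 at 67.7. Apoa2 was the most abundant transcript of all genes in its best-ranked library, and Apoe ranked between 2 and 12. Apoe and Apoa2 were not separated, since Apoe was above Apoa2 in 7 of 12 libraries. Apoa5 was above Apob in 9 of 12 libraries and Apom above Apoa4 in 11 of 12, the exception being aged/doxo library 2. Each other neighbouring pair kept its order in all 12 libraries, although the ranges over libraries were free of overlap only between Apoa1 and Apoc3 and between Apoc3 and Apoh. By TPM, Apob was thus low in the order although its protein forms the VLDL scaffold.

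**Figure D2:**
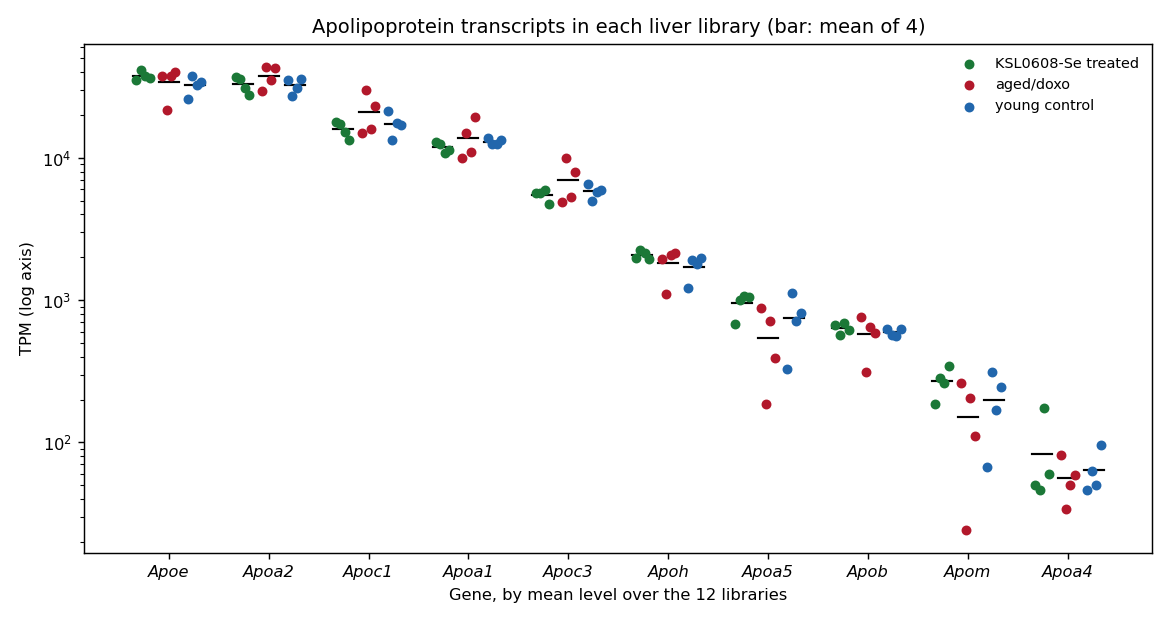
Each point is 1 library, with TPM on a log axis and genes ordered by their mean over 12 libraries; bars are means of 4 libraries, with treated left, aged/doxo in the middle and young control right. Groups overlap for every gene, and Apom and Apoa5 in aged/doxo liver spread most, between 24.4 and 261 TPM and between 186 and 883 TPM.

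Among the HDL proteins, Apoa1 encodes apoA-I, which accepts cholesterol and activates its esterification in plasma. It stood at 12814, 12465, 10760.4 and 11422 TPM in treated libraries 1 to 4, at 9974, 14817, 10902 and 19191 TPM in aged/doxo libraries and at 13685, 12492, 12448 and 13361 TPM in young control libraries. Its spread was wide in aged/doxo liver, a coefficient of variation of 30.7% against 7.96% in treated and 4.79% in young control liver, and aged/doxo library 4 was the highest of all. Group means were 11865.5 ± 945 TPM in treated, 13721 ± 4207 in aged/doxo and 12997 ± 622 in young control livers (SD, n = 4 each).

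Apoa2 encodes apoA-II, another major HDL protein. Its levels were 37158, 35467, 30768 and 27544 TPM in treated liver, 29633, 43325, 34928 and 42402 TPM in aged/doxo liver and 35315, 27125, 30928.5 and 36009 TPM in young control liver. The highest 2 values were again aged/doxo libraries 2 and 4, but aged/doxo library 1 lay among the lowest, and the groups overlapped. The log2 fold change of aged/doxo over young control was 0.21 (95% interval -0.13 to 0.54).

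Apom encodes apoM, the HDL protein that carries the signalling lipid sphingosine phosphate. It stood at 185, 282, 262 and 344 TPM in treated liver, 261, 24.4, 205 and 111 TPM in aged/doxo liver and 67.2, 312, 168 and 246 TPM in young control liver. The highest library was 14.1 times the lowest, the widest range among the 10 genes. Aged/doxo library 2, young control library 1 and aged/doxo library 4 held the 3 lowest values. The group means were 268 ± 65.4 TPM in treated, 150 ± 104 in aged/doxo and 198 ± 105 in young control livers (SD, n = 4 each).

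Among proteins of triglyceride-rich particles and their remnants, Apob was steady in 11 of the 12 libraries. It stood at 668, 572, 691 and 612 TPM in treated liver, 766, 315, 652 and 585 TPM in aged/doxo liver and 623, 569.9, 562 and 629.6 TPM in young control liver. Aged/doxo library 2 was the single low value, at 47.1% of the mean of the other 3 aged/doxo libraries. Without it, aged/doxo liver averaged 668 ± 91.7 TPM (SD, n = 3), above the young control mean of 596 ± 35.2 (n = 4), and the ranges still overlapped.

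Apoe encodes apoE, the ligand by which remnants bind the LDL receptor and LRP1. Its levels were 35177, 41538, 37484 and 36368 TPM in treated liver, 37442, 21785, 37445 and 40159 TPM in aged/doxo liver and 25956, 37664, 32544 and 34204 TPM in young control liver. Aged/doxo library 2 and young control library 1 were the 2 lowest, and the other 10 libraries lay between 32544 and 41538 TPM. Macrophages also make apoE, and the 14 Kupffer cell and macrophage markers, all detected, summed to between 223 and 334 TPM in treated liver, between 89.5 and 542 in aged/doxo liver and between 214 and 379 in young control liver. The sum was 89.5 TPM in aged/doxo library 2 and 266 TPM in young control library 1, the libraries of lowest Apoe, and 119 TPM in aged/doxo library 3, where Apoe stood at 37445 TPM. The part of these cells in the Apoe values was not tested. In whole tissue, fewer cells of a type and less RNA per cell cannot be told apart.

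The genes that tune lipase action and particle uptake did not vary alike. Apoc1 encodes apoC-I, which hinders remnant uptake, and stood at 17706, 17149, 15153 and 13428 TPM in treated liver, 14966, 29800.4, 15892 and 22989 TPM in aged/doxo liver and 21408, 13225, 17548 and 16893 TPM in young control liver. Apoc3 encodes apoC-III, an inhibitor of lipoprotein lipase, and stood at 5676, 5628, 5908 and 4746.5 TPM in treated liver, 4920.2, 9936, 5324 and 7902 TPM in aged/doxo liver and 6587, 4977, 5719.8 and 5932 TPM in young control liver. Both were highest in aged/doxo libraries 2 and 4, followed by young control library 1. The group means were 15859 ± 1957 TPM for Apoc1 in treated, 20912 ± 6925 in aged/doxo and 17269 ± 3352 in young control livers, and 5490 ± 510.3 TPM for Apoc3 in treated, 7020.4 ± 2350.1 in aged/doxo and 5804 ± 664 in young control livers (SD, n = 4 each).

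Apoa5 encodes apoA-V, which promotes lipase action and lowers plasma triglyceride. It stood at 680.3, 1009, 1072 and 1043 TPM in treated liver, 883, 186, 715 and 392 TPM in aged/doxo liver and 327, 1123, 708 and 815 TPM in young control liver. Its 3 lowest values were aged/doxo library 2, young control library 1 and aged/doxo library 4, the libraries in which Apoc1 and Apoc3 were highest. The group means were 951 ± 182 TPM in treated, 544 ± 314 in aged/doxo and 743 ± 328 in young control livers (SD, n = 4 each).

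Apoa4 encodes apoA-IV, a protein of intestinal particles and HDL that mouse liver also makes. It was the lowest of the 10 genes on average, at 50.5, 46.7, 174 and 60.1 TPM in treated liver, 81.9, 33.9, 50.3 and 58.75 TPM in aged/doxo liver and 46.2, 63.4, 50.1 and 96.35 TPM in young control liver. Treated library 3 alone was above 100 TPM, and the other 3 treated libraries lay within the young control range. The mean of 82.8 ± 61.03 TPM in treated liver (SD, n = 4) therefore rested on 1 library.

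Apoh encodes apoH, a plasma protein that binds phospholipid. It stood at 1974, 2231, 2152 and 1936 TPM in treated liver, 1946, 1104, 2073 and 2135 TPM in aged/doxo liver and 1213, 1907, 1792 and 1965 TPM in young control liver. As for Apoe, aged/doxo library 2 and young control library 1 were the 2 lowest libraries, while aged/doxo library 4 was among the higher ones. The remaining 10 libraries lay between 1792 and 2231 TPM.

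The first comparison sets aged/doxo against young control liver. None of the 10 genes passed: limma, adjusted by Benjamini-Hochberg over all 10883 genes, called 0 members and 0.00919% of all genes. At an unadjusted p under 0.05 there were 0 members and 1.98% of all genes, 1.19% on the higher and 0.781% on the lower side. Groups were free of overlap for 0 members and 1% of all genes, 0.689% higher and 0.312% lower. Apoc1, Apoc3 and Apoa2 had log2 fold changes, computed from log2(TPM + 1), of 0.24 (SE 0.22), 0.22 (SE 0.21) and 0.21 (SE 0.16). Apom and Apoa5 had -0.63 (SE 0.64) and -0.55 (SE 0.46), and the median of all tested genes was -0.08. The intervals of Apom, -2.03 to 0.76, and Apoa5, -1.55 to 0.45, reached well to both sides of 0, while those of Apoe (-0.36 to 0.45), Apoa1 (-0.37 to 0.43) and Apoh (-0.44 to 0.55) stayed within 1 of it. Without aged/doxo library 2 the value was 0.079 for Apom and -0.11 for Apoa5, beside a median of all genes of 0.10.

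The second comparison sets KSL0608-Se treated against aged/doxo liver and shares the aged/doxo libraries with the first. By limma adjusted over all genes 0 members were called, against 0.00919% of all genes. At an unadjusted p under 0.05 there were 1 member, Apoa5, and 4.77% of all genes, 3.82% higher and 0.946% lower. Groups were free of overlap for 0 members and 3.13% of all genes, 2.77% higher and 0.358% lower. With median-of-ratios scaling, which brings it near 0 by construction, the median of all genes was -0.0061. On the deposited scale it was itself 0.30 in this comparison, so member values are given beside that shift. Apoa5 had a log2 fold change of 1.01 (SE 0.46, 95% interval 0.011 to 2.01, limma unadjusted p = 0.0479, adjusted p = 0.427), 0.71 above the median of all genes. Apom had one of 1.24 (SE 0.64, 95% interval -0.16 to 2.63, limma adjusted p = 0.427), 0.94 above that median. Apoc1, Apoc3, Apoa2 and Apoa1 had -0.35, -0.30, -0.19 and -0.16, which lay between 0.46 and 0.65 below it, and Apoe, Apob and Apoh had 0.17, 0.20 and 0.24, each within 0.13 of it. Apoa4 had a value of 0.39 (95% interval -0.50 to 1.28).

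These values changed when aged/doxo library 2 was left out and when the length slope was fitted. Without that library, Apoa5 had a log2 fold change of 0.58 and Apom 0.53, while the median of all genes was 0.13. With the length slope of each library as a covariate, an alternative chosen after seeing the data, Apoa5 had 0.17, Apom 0.13, Apoc1 0.023 and Apoc3 0.00042, beside a median of 0.02. On the deposited scale the median log2 fold change of treated over aged/doxo liver over all genes differed with transcript length. It was -0.08 over 724 genes under 600 bases and 0.13 over 1600 genes of 600 to under 1300 bases. It was 0.31 over 4325 genes of 1300 to under 3000 bases and 0.37 over 4234 genes of 3000 bases or more. Members of 600 to under 1300 bases ran from -0.30 for Apoc3 to 1.24 for Apom, and Apob had 0.20. Whether length set the member values was not tested. Apom, at 1013 bases, lay far above the median of its length class and Apob, at 13934 bases, below that of its own.

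The last comparison sets treated against young control liver and shares libraries with both others. By limma adjusted over all genes 0 members were called, against 0.0276% of all genes, 0.0184% higher and 0.00919% lower. At an unadjusted p under 0.05 there were 0 members and 3.4% of all genes, 2.74% higher and 0.662% lower. Groups were free of overlap for 0 members and 4.02% of all genes, 3.66% higher and 0.358% lower. Log2 fold changes ranged from -0.13 for Apoa1 to 0.61 for Apom, beside a median of all genes of 0.23, and the smallest adjusted p among members was 0.734. Apoh had 0.29 (95% interval -0.20 to 0.79), Apoe 0.22 (-0.18 to 0.62) and Apoa2 0.02 (-0.32 to 0.35).

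**Figure D3:**
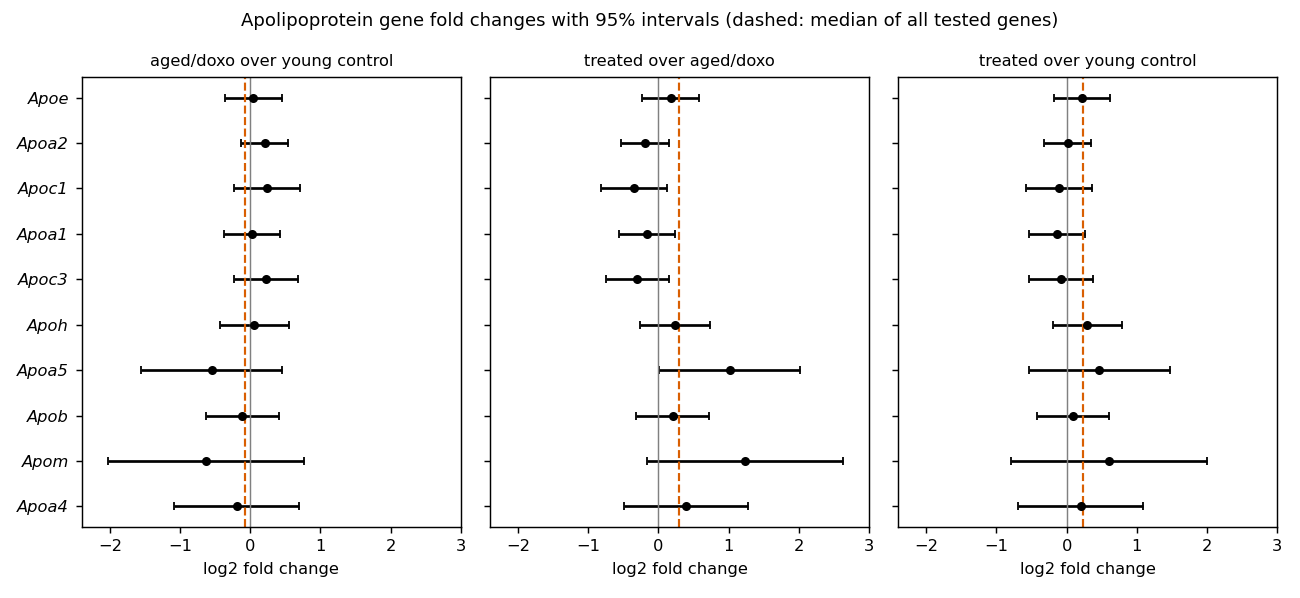
Points are log2 fold changes of TPM + 1 from the limma fit, with 95% intervals, for aged/doxo over young control (left), treated over aged/doxo (middle) and treated over young control (right); the dashed line is the median of all 10883 tested genes. The interval of Apoa5 in the middle panel, 0.011 to 2.01, is the only one of the 30 that does not cross 0.

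Ratios of 2 genes within a library do not depend on how the library was scaled, and they showed the same contrast between libraries. Apoa1 and Apoa5 lie in the same stretch of chromosome 9, and their ratio was 18.8, 12.4, 10.04 and 10.9 in treated liver, 11.3, 79.6, 15.3 and 48.98 in aged/doxo liver and 41.8, 11.1, 17.6 and 16.4 in young control liver. The 3 high values were aged/doxo libraries 2 and 4 and young control library 1. The ratio of Apoc1 to its neighbour Apoe was 1.37 in aged/doxo library 2 and 0.825 in young control library 1, while the other 10 libraries lay between 0.351 and 0.572. By contrast, the ratio of Apoa5 to Apom, which lie on different chromosomes, was between 3.03 and 4.87 in 11 libraries and 7.64 in aged/doxo library 2.

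Set in order of length slope, the libraries gave 3 kinds of pattern. In the 3 libraries of most negative slope, aged/doxo libraries 2 and 4 and young control library 1, Apoc1 and Apoc3 had their 3 highest values and Apoa5 and Apom their 3 lowest. Apoe and Apoh had their 2 lowest values in aged/doxo library 2 and young control library 1. In aged/doxo library 2, Apom (1013 bases) was at 12.7% and Apoa1 (1035 bases) at 111% of the mean of the other 3 aged/doxo libraries. What the slope stands for in the handling of the libraries was not tested.

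**Figure D4:**
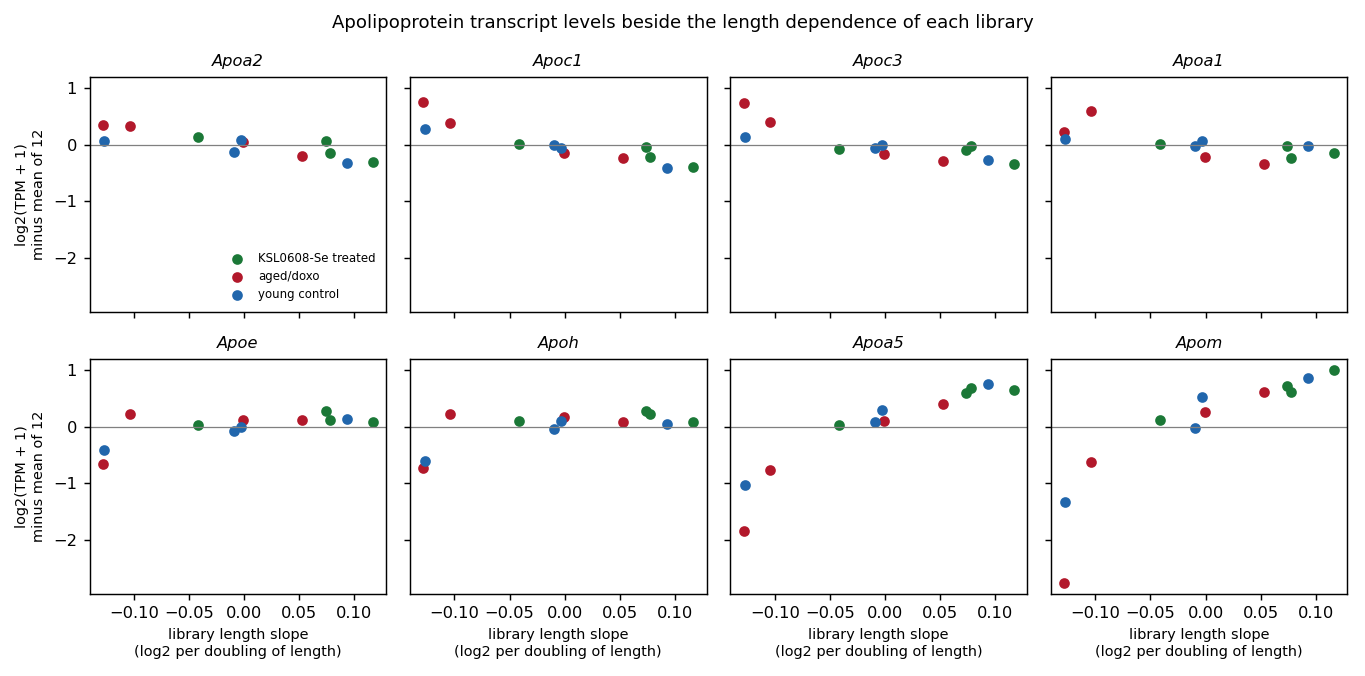
Each panel shows 1 gene and each point 1 library; the horizontal axis is the length slope of the library (log2 per doubling of transcript length) and the vertical axis log2(TPM + 1) minus the mean of the 12 libraries. Apoa5 and Apom lie lowest at the slope of -0.128, in aged/doxo library 2, where Apoc1 and Apoc3 lie highest.

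The genes of most similar pattern were sought among 9781 other tested genes with an established symbol, by Pearson r of log2(TPM + 1) over the 12 libraries, which share the differences between libraries described above. For Apom these were Retreg2, Asb8 and Homer2 (r = 0.997, 0.997 and 0.996, and 0.979, 0.980 and 0.980 over the 10 libraries without aged/doxo library 2 and young control library 1). For Apoa5 they included Ceacam1 and Zcchc24 (r = 0.993 for each, and 0.979 and 0.977 over 10 libraries). For Apoc1 they were Uqcrq, mt-Nd3 and Pfdn6 (r = 0.965, 0.964 and 0.964, and 0.915, 0.904 and 0.905 over 10 libraries). Uqcrq and mt-Nd3 encode respiratory chain subunits, and all of these transcripts are short, at 405, 348 and 481 bases beside 532 for Apoc1. Matches of other short members were mostly longer than the member. For Apoa2 (458 bases) they were Pfdn2, Mcee and Smim27, at 1735, 828 and 1044 bases. For Apoc3 (709 bases) they were Snhg20, Fxyd1 and Ppp1r35, at 2153, 568 and 956 bases. For Apoe and Apoh the likeness was lower still without aged/doxo library 2 and young control library 1. Proc, which encodes the anticoagulant protein C, had r = 0.974 with Apoe over 12 libraries and 0.8235 over 10. Nop53 had r = 0.979 with Apoh over 12 and 0.779 over 10. Apoa4 had the weakest match, Ccdc28a (r = 0.891).

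Neighbouring and other apolipoprotein genes were not called either, as were nearly all genes tested. Apoc4, the gene next to Apoc1, stood at 2795, 2498, 2172 and 2286 TPM in treated liver, 2174, 3996, 2503 and 3517 TPM in aged/doxo liver and 3190.4, 2247, 2629 and 2708 TPM in young control liver. Like Apoc1, it was highest in aged/doxo libraries 2 and 4 and young control library 1. Apoc2, which encodes the activator of lipoprotein lipase, ranged between 266 and 311 TPM in treated, 200.2 and 356 in aged/doxo and 226 and 389 in young control livers. Of 15 tested genes for other apolipoproteins and HDL-bound proteins, 0 passed in any of the 3 comparisons by limma adjusted over all genes, and 0 had an unadjusted p under 0.05. Over all genes the shares were between 0.00919% and 0.0276% and between 1.98% and 4.77%, so few or none of 15 would pass at those shares.

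The machinery that builds, remodels and clears lipoproteins was listed with earlier results of these data known. By limma adjusted over all genes, 0 of its tested genes passed in any comparison, where at most 0.0276% of all genes did. For treated over aged/doxo liver, medians were 0.49 over 24 genes of VLDL assembly, 0.51 over 7 genes of HDL formation, 0.50 over 9 genes of lipase control, 0.51 over 14 lipoprotein receptors and 0.53 over 23 regulators of apolipoprotein genes, beside 0.30 for all genes. With aged/doxo library 2 left out they were 0.20, 0.24, 0.19, 0.34 and 0.28 in that order, beside 0.13 for all genes. With the length slope, which itself differed between groups, as a covariate they were 0.08, -0.09, 0.03, 0.02 and 0.04, beside 0.02. Medians of cell type markers also varied in this comparison, beside 0.30 for all genes. In these lists 0 genes were called by limma adjusted over all genes. The median was 0.59 over 10 endothelial markers, 0.51 over 13 Kupffer cell and macrophage markers and 0.33 over 17 hepatocyte markers. It was -0.02 over 12 stellate cell markers, -0.20 over 3 cholangiocyte markers and -0.73 over 5 erythroid markers. The 1 tested enterocyte marker had 0.53. At an unadjusted p under 0.05, 4 of 10 endothelial markers were higher and 4 of 5 erythroid markers lower. The other tested erythroid marker, Alas2, had a log2 fold change of 0.15. Of the Kupffer cell and macrophage markers 1 was higher, and of the stellate cell markers 1 was higher and 1 lower. The hepatocyte, cholangiocyte and enterocyte lists had 0 on either side. Of all genes, 3.82% were higher and 0.946% lower at that threshold. Summed erythroid markers ran between 846 and 1778 TPM in treated liver, against 1839 to 2568 TPM in aged/doxo liver, and summed endothelial markers between 57.0 and 112 TPM in treated liver, against 34.7 to 78.4 TPM in aged/doxo liver. For aged/doxo over young control liver the erythroid median was 0.82, with 4 of 5 markers higher at that threshold, beside 1.19% of all genes. The endothelial median there was -0.04, with 0 of 10 past it. For treated over young control liver the erythroid median was 0.09, with 0 of 5 past it. The endothelial median was 0.59, with 2 of 10 higher, beside 2.74% of all genes. The part of these markers in the list medians was not tested.

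Genes of smallest p in these lists illustrate the range for treated over aged/doxo liver, each at a limma adjusted p of 0.427. A1cf, the cofactor for editing of Apob mRNA, had a log2 fold change of 1.25 (SE 0.55), and Tmem41b, a lipid scramblase needed for VLDL export, one of 0.60 (SE 0.26). Abca1, which loads cholesterol onto apoA-I, and Scarb1, the HDL receptor, had 0.85 and 0.90. Angptl4, an inhibitor of lipoprotein lipase, had 0.95, and Gpihbp1, which holds the lipase on capillary walls, had 0.82. Mylip, which marks the LDL receptor for degradation, had 0.63, and the scavenger receptor gene Stab1 had -0.83. Among regulators, Ppara, the fatty acid receptor, had 0.72, Nr0b2 0.70 and the clock repressor Nr1d1 1.05. At an unadjusted p under 0.05, 3 of 24 VLDL assembly genes, 0 of 7 HDL formation genes, 2 of 9 lipase control genes, 3 of 23 regulators and 1 of 14 receptors were on the higher side and 1 receptor was on the lower side, where 3.82% and 0.946% of all genes were.

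For aged/doxo over young control liver the medians of these 5 lists lay between -0.23 and -0.08, beside -0.08 for all genes. Stab1 alone had an unadjusted p under 0.05, with a log2 fold change of 0.91 (SE 0.33, limma adjusted p = 1). For treated over young control liver the medians lay between 0.26 and 0.39, beside 0.23 for all genes. Nr1d1 had the largest of the named values there, 1.43 (SE 0.46, limma adjusted p = 0.734), and stood at 10.03, 40.4, 17.4 and 21.2 TPM in treated liver against 4.31, 7.68, 7.83 and 7.76 TPM in young control liver. Those groups did not overlap, as in 3.66% of all genes on the higher side.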

How the data were processed

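RNA was measured in 12 liver libraries, 4 in each of 3 groups. The authors deposited TPM for 55903 genes. Reads were processed with fastp, HISAT and RSEM, per the submitters' processing notes, with no version stated. No source read here names their genome build or annotation. The deposited table also gives each gene a length in bases, and the authors' group means in TPM, which equalled the means of the matched columns. Depth is not kept in TPM, so no counting interval was computed.

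Genes averaging 1 TPM or more over the 12 libraries (10883) were tested on the log2(TPM + 1) scale, where the pseudocount of 1 makes fold changes of low genes too small. All libraries entered 1 fit by group in limma 3.58.1 (R 4.3.3) with its intensity trend. Tests were two-sided, with Benjamini-Hochberg adjustment over all genes and 0.05 as the threshold. The fit was tested on simulated data with known changes. Members and lists were chosen with earlier results of these data known. Up to 3 genes of smallest p per list and comparison, all members, the 3 genes of most similar pattern per member and other apolipoprotein genes could be named; 1 gene that this rule selects is not reported here. The alternatives covered the pseudocount, the filter, 4 scalings, the replicate number as a block, the compared groups alone, leaving out each library, leaving out aged/doxo library 2 with young control library 1 and, chosen after seeing the data, the length slope as a covariate. Plots used matplotlib 3.10.9 (Python 3.11.15).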

Additional observations from a re-analysis of the deposited data

Results flagged for a closer look

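A value was singled out where the highest or lowest of 4 libraries lay far from the others by Dixon's criterion. Chance alone does so for about 1 in 20 groups, and 4 of 36 groups tested did. Apoe stood at 21785 TPM in aged/doxo library 2, below 37442 to 40159 TPM in the other 3 aged/doxo libraries. That library also held the mitochondrial share that stood apart, 27.6% against 9.82% to 11.5% in the others of its group. Apoa4 stood at 174 TPM in treated library 3, above 46.7 to 60.1 TPM in the other 3 treated libraries. Apoa5 stood at 680.3 TPM in treated library 1, below 1009 to 1072 TPM in the other 3 treated libraries.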

How the results depend on the processing

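No apolipoprotein gene was called in any comparison by limma under any of the 12 alternatives or the 12 fits that left out 1 library. Member values are log2 fold changes, and directions that changed belonged to values that were not called.

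For treated over aged/doxo liver, median-of-ratios scaling gave -0.18 for Apob, -0.20 for Apoe and -0.14 for Apoh, and a total without mitochondrial and the 50 most abundant genes gave -0.011 for Apob and -0.040 for Apoe. Quantile normalization gave 0.0034 for Apoa1. Leaving out aged/doxo library 2 and young control library 1 gave -0.065 for Apob and -0.029 for Apoe. The length slope as a covariate gave 0.052 for Apoa1, 0.041 for Apoa2, 0.023 for Apoc1, 0.00042 for Apoc3, -0.041 for Apoe and -0.0047 for Apoh. For aged/doxo over young control, quantile normalization gave -0.011 for Apoa1 and -0.13 for Apoe, the fit without the 2 libraries 0.18 for Apob and the slope -0.040 for Apoa1. For treated over young control, median-of-ratios scaling gave -0.27 for Apoa2, -0.082 for Apoa4, -0.19 for Apob and -0.067 for Apoe, and quantile normalization -0.12 for Apoa2, -0.0073 for Apoa4, -0.010 for Apob, 0.21 for Apoc1 and 0.16 for Apoc3. The total without mitochondrial and the 50 most abundant genes gave -0.16 for Apoa2 and -0.087 for Apob, and the slope 0.011 for Apoa1, -0.036 for Apoa4, -0.10 for Apoa5, -0.016 for Apob, 0.14 for Apoc1, 0.12 for Apoc3 and -0.14 for Apom. The cause was not tested.

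Leaving out 1 library each, values that changed sign for aged/doxo over young control ranged from -0.15 to 0.17 for Apoa1, -0.39 to 0.022 for Apoa4, -0.27 to 0.16 for Apob, -0.062 to 0.25 for Apoe, -0.10 to 0.28 for Apoh and -1.08 to 0.079 for Apom. For treated over aged/doxo they ranged from -0.30 to 0.014 for Apoa1, -0.039 to 0.59 for Apoa4, -0.065 to 0.36 for Apob and -0.029 to 0.27 for Apoe, and for treated over young control from -0.065 to 0.096 for Apoa2 and -0.23 to 0.41 for Apoa4.

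Of all 10883 genes, limma called 1 in aged/doxo against young control, 1 in treated against aged/doxo and 3 in treated against young control, and these counts ranged from 0 to 4, 0 to 2 and 1 to 6 without each library. In the first comparison the count was 2 with a pseudocount of 0.1 or 0.01, 0 with no filter, 3 with median-of-ratios scaling, 2 with quantile normalization, 3 without mitochondrial and the 50 most abundant genes, 0 with the compared groups alone, 3 without both libraries and 2 with the slope. In the second it was 0 with a pseudocount of 0.01, no filter, median-of-ratios scaling, quantile normalization or the slope and 2 with the compared groups alone. In the third it was 1 with no filter, 5 without mitochondrial genes, 5 also without the 50 most abundant genes, 5 with the compared groups alone and 6 without both libraries. With the replicate number as a block, the counts were 0, 0 and 1. Correlations of same-numbered deviations ran from -0.58 to 0.228, -0.397 to 0.043 and -0.0251 to 0.393 in the 3 comparisons, and 1, 0 and 1 of 4 were over 0.1. The library of the same number was the best match in 0, 0 and 2 of 4 cases. With 4 correlations per comparison, whether the numbers pair the libraries cannot be settled. The block changed no call of a member.

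The share of TPM held by the 10 genes was 11.98% in treated, 13.87% in aged/doxo and 11.57% in young control livers without mitochondrial genes in the total. Without each library in turn it ranged from 10.47% to 11.1% in treated, 11.01% to 12.2% in aged/doxo and 10.2% to 10.6% in young control liver. Depth is unknown, so how far counting error limits Apoa4 and Apom, the genes of lowest level, cannot be given.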

Other observations

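Apolipoprotein L genes, tested above among the genes for other apolipoproteins, encode proteins that share the family name. Apol9b stood between 84.2 and 94.8 TPM in treated liver, 62.1 and 134 TPM in aged/doxo liver and 76.3 and 93.1 TPM in young control liver, and Apol9a between 34.5 and 45.2, 19.5 and 64.2 and 28.2 and 45.2 TPM in the same order. Both are near-identical copies, so their separate values are uncertain. For both genes the lowest value was in aged/doxo library 2 and the highest in aged/doxo library 4. Apod, which encodes a lipocalin and not a typical apolipoprotein, was listed at 0 in 10 of 12 libraries and at no more than 0.18 TPM in the others.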
